A study of Drosophila melanogaster with 36 samples.

Results

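The 65 probe sets described here reached higher levels in the heads of Control flies during 14 days of ageing and were lower, at day 14, in flies that expressed polyglutamine-expanded Atrophin. The members were chosen by their measured values at day 14 and, in Control, at day 0, from 18769 fly probe sets. A member was at least 0.4 higher, on the log2 scale, in Control at day 14 than at day 0. At day 14 it was also at least 0.3 lower in each polyglutamine (polyQ) line, A66QC and A75QN, than in both Control and Atro. These values were met by 71 probe sets, of which 6 were set aside by their gene symbol (bw, sad, Osi6, pkm, Tsp42En, Tsp42Eo and symbols that begin with Cpr, Cyp, Gst, Obp or lncRNA). Among the members, 56 are annotated to 1 gene each, 2 to several genes and 7 to no symbol, and the last 9 are given by probe set only. The rule thus used the Control arrays of day 0 and all arrays of day 14, so every value that involves them is a description with no test. The 21 arrays of day 2 and of day 0 in the other genotypes played no part in the choice, and all differences tested below are between those. The SEs and p-values come from a model of all 36 arrays.

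RNA from 20 pooled fly heads per sample was measured on 36 arrays, 3 for each combination of 4 genotypes and 3 ages. All flies carried GMR-Gal4, which drives expression in the developing and adult eye, and the temperature-sensitive Gal80 repressor, Control flies included. The line Atro added a wild-type Atro transgene, and the lines A66QC and A75QN added polyQ-expanded Atro transgenes. Flies developed at 18 °C, where Gal80 keeps the transgene silent, were collected within 48 hours of eclosion and were frozen at once (day 0) or after 2 or 14 days at 29 °C. Day 2 and day 14 therefore differ from day 0 in age, in temperature and, in the transgenic lines, in expression of the transgene, and these cannot be told apart within a line. GMR-Gal4 acts in the eye, while a head sample also holds brain, glia, fat body, muscle, cuticle and blood cells. In such mixed samples, fewer cells of a type and less RNA per cell cannot be told apart. Nothing in the labels tells if the replicates are separate cultures, so a p-value measures only the spread between these samples.

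Atrophin is a nuclear corepressor, and an expanded glutamine stretch in its human counterpart causes dentatorubral-pallidoluysian atrophy, a neurodegenerative disease. Genes whose RNA becomes more abundant as flies age typically include those of humoral immunity, in which the ligand Spz activates the receptor Toll and Toll signalling induces secreted peptides in the fat body. Secreted proteases and serpins control such cascades, carrier proteins move hormones and other small molecules through the haemolymph (the fly's blood), and surface glia form the blood-brain barrier.

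Array medians lay between 6.34 and 6.40 and array SDs between 1.45 and 1.67 on the log2 scale. A level under 6.40 is called near background, which concerns CG13840, CG15861, CG5883, sut2 and probe set 1625698_at in some groups. On 6 arrays, called those of outlying spread, the SD was 5% or more away from its group's median, a limit set with the data known. The day 14 arrays differed in SD by genotype, with 1.58 to 1.67 in Control, 1.57 to 1.59 in Atro, 1.50 to 1.54 in A66QC and 1.48 to 1.55 in A75QN. The 3' minus 5' difference of the Gapdh control probe sets, a measure of RNA quality, also differed at day 14. It was 1.737 to 1.879 in Control, 2.038 to 2.189 in Atro, 2.136 to 2.196 in A66QC and 1.869 to 2.165 in A75QN. Its day 0 means were 1.51, 1.56, 1.63 and 1.57 in the same order. The part of this measure in the members' levels was not tested. After quantile or cyclic loess normalization, 42 of the 65 still met the rule in each case, and 41 met it in both. The 22 members that met it under neither are BomBc3, CG1299, CG13116, CG14275, CG4757, CG5854, CG6435, Dys, Jhbp3, Mad, Nepl18, Paics, Sp212, Spn77Ba, Syb, Tig, egh, galla-2, p47, spz and probe sets 1628884_at and 1639019_s_at. The 24 probe sets of the poly-A spike-ins, bacterial RNAs added at labelling, had means of 13.2 to 13.4 on the 6 arrays of A75QN at days 2 and 14, and of 10.2 to 10.8 on the other 30, and their part in the A75QN values was not tested. Photoreceptor markers, 5 of 8 listed genes measured, averaged 12.61 for Control, 12.46 for Atro, 12.50 for A66QC and 12.46 for A75QN at day 14. Of 5 glial markers 4 were measured, and 1 of them, moody, is a member chosen on these levels. The other 3 (repo, alrm and Gs2) averaged 10.24, 10.25, 10.02 and 10.26 in the same order, with summed log2 levels of 12.08 to 12.30, 12.03 to 12.12, 11.79 to 11.86 and 11.91 to 12.14. repo and alrm were higher in A75QN (9.84 and 9.76) than in Control (9.73 and 9.37), and Gs2 was lower (11.18 against 11.60). Tracheal markers, all 3 measured, averaged 8.23, 8.53, 7.84 and 8.07, with sums of 10.13 to 10.26, 10.41 to 10.57, 9.43 to 9.69 and 9.71 to 9.88. Markers of gut, testis and ovary averaged 5.72 to 6.25 in every group, near background. The part of glial or tracheal content in the members' levels was not tested.

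At day 14 the mean level over the 65 members was 9.72 to 9.97 on the Control arrays, 9.50 to 9.69 in Atro, 8.79 to 8.89 in A66QC and 8.87 to 8.95 in A75QN. The Control levels of single members at day 14 reached from 6.77 to 13.1 with a median of 9.57. From day 0 to day 14 the median difference of the members was 0.86 in Control, with a range of 0.40 to 5.93. Atro had 0.51, A66QC 0.05 and A75QN 0.20. Below their own day 0 level at day 14 were 6 members in Atro, 29 in A66QC and 19 in A75QN. A difference of 0.4 or more from day 0 to day 14 was reached by 43 members in Atro, 14 in A66QC and 20 in A75QN. The number at least as much higher as in Control was 8 in Atro and 0 in each polyQ line. The rule set the polyQ lines, but not Atro, below Control at day 14, so these last counts are not compared. The Atro line, which the rule required only to exceed the polyQ lines, was within 0.3 of Control at day 14 for 44 members, lower by 0.3 or more for 18 and higher by that much for 3. The polyQ lines fell short of Control by a median of -0.83 in A66QC and -0.71 in A75QN, and of Atro by -0.62 and -0.56, where the median over all 18769 probe sets lay between 0.00 and 0.02. Nearest the limits, Mad (0.40), Jhbp3 (0.42) and egh (0.46) were just inside the required Control difference, while DAAM (0.39), CG1943 (0.39) and CG6421 (0.38) were just outside. The smallest shortfalls inside were those of galla-2 (-0.31), Dys (-0.31) and Mad (-0.31), and CG14636, NAAT1 and CG15083 lay outside at about -0.30 each. The heatmap of group means gives all members by role.

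**Figure D1:**
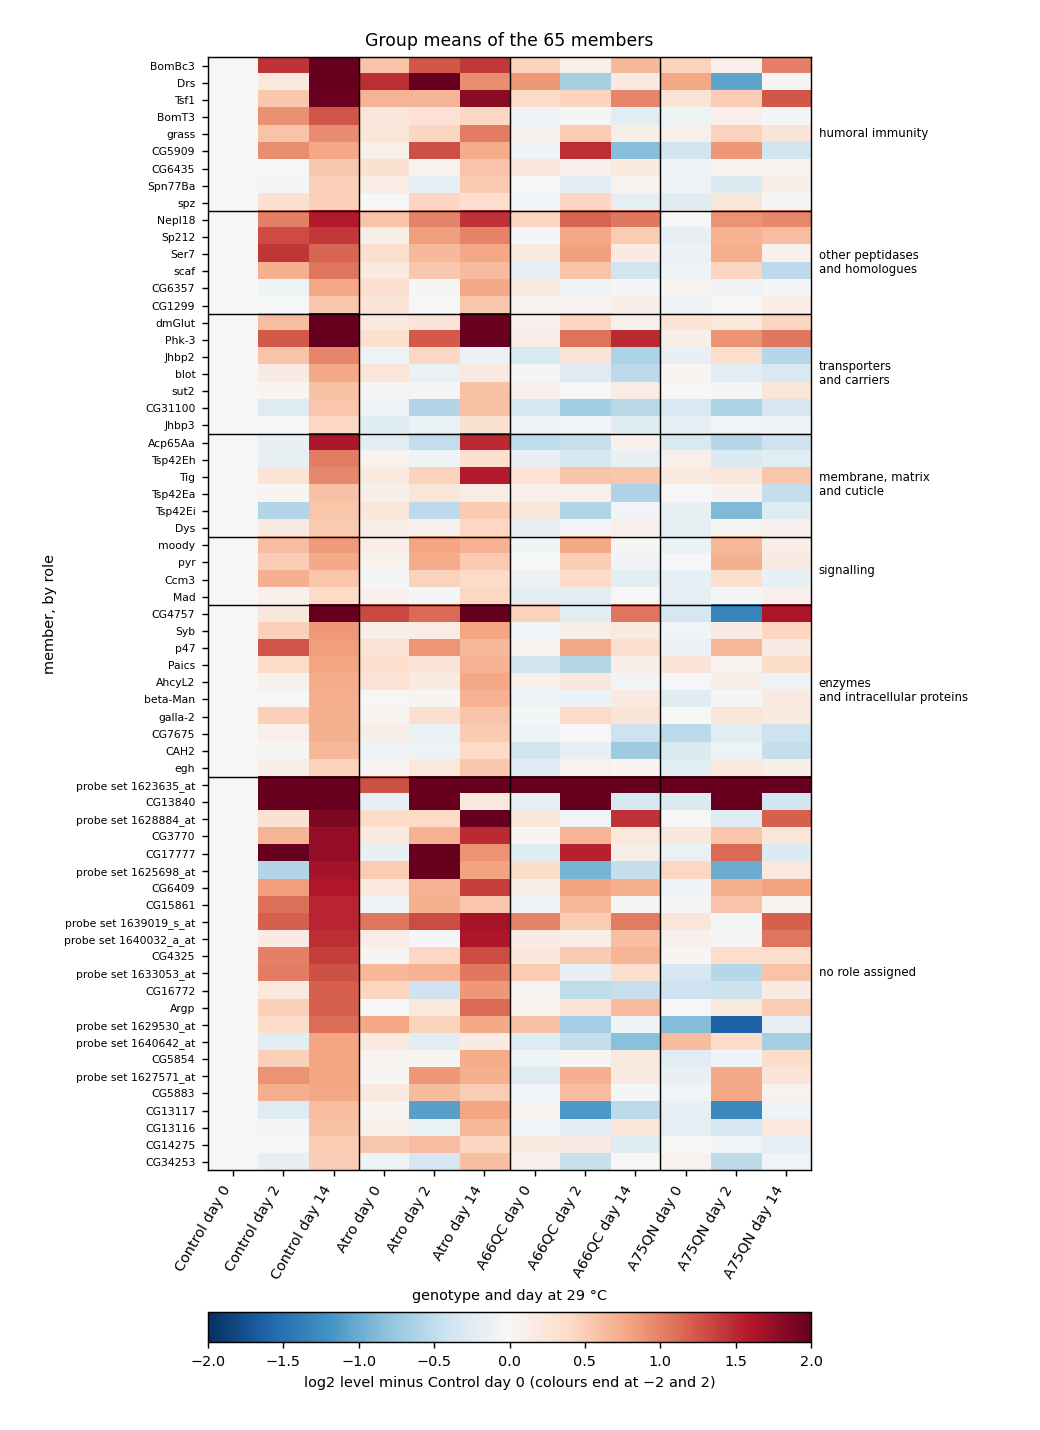
Mean log2 level of each of the 65 members in the 12 groups (3 arrays each), minus its Control day 0 mean, with members ordered by role and then by their Control day 14 difference. The Control day 14 and Atro day 14 columns are mostly red, and many cells of the polyQ lines at day 14 are pale or blue, while the day 2 columns show a set of members that were red in all 4 genotypes.

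Of the 56 members with a gene, 19 (33.9%) lie on chromosome 3R, which holds 25.2% of the tested probe sets with a placed gene, and 0 lie on chromosome 4. Several pairs are direct neighbours, with 0 protein-coding genes between them in the RefSeq annotation of Release 6 plus ISO1 MT. They are BomBc3 and BomT3, Jhbp2 and Jhbp3, and CG5909 and grass on 3R, CG15861 and CG3770, and Tsp42Ei and Tsp42Eh on 2R, galla-2 and CG6409 on 3L, CG13117 and CG13116 on 2L, and moody and CG4325 on X. Of all 11981 genes measured 56 (0.467%) were members. Of the wider gene lists, 4 of 47 measured immune genes were members (Drs, BomBc3, grass and spz), 2 of 42 serine protease and serpin genes (Ser7 and Spn77Ba), and 1 each of the lists for sugar metabolism (sut2), one-carbon metabolism (AhcyL2), stress response (Tsf1) and juvenile hormone binding (Jhbp2). No member came from the lists for lipid metabolism (0 of 49 measured), detoxification (0 of 38, with the cytochrome P450 and glutathione transferase families set aside by the rule), vision and eye (0 of 66, with bw set aside by the rule), neuropeptides (0 of 35) or ion channels (0 of 70), and at the share over all genes lists of these sizes would hold under 1 member each, so nothing is read from these counts.

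The first question open to a test was whether the members changed in the first 2 days at 29 °C. A large subset did, and did so in the polyQ lines as well. In Atro 23 members (35.4%) rose from day 0 to day 2, where 6.12% of all probe sets did, and 11 (16.9%) fell, where 9.61% did. In A66QC 25 members (38.5%, of all probe sets 11.2%) rose and 7 (10.8%, of all 6.85%) fell. In A75QN 25 members (38.5%, of all 12.8%) rose and 8 (12.3%, of all 6.92%) fell. Whichever array was left out, 18 of the 23, 22 of the 25 and 22 of the 25 rises were kept. Array medians lay between 6.34 and 6.40, while the lowest Control level of a member at day 14 was 6.77. The members are thus brighter than many of all probe sets. The shares here and below were not matched for level. Overlaps between the 3 lines are given for the members only, with none over all probe sets, and are not read as particular to the members. The 3 sets of rises had 21 members in common, out of 28 that rose in at least 1 line. These early risers were the peptidases and homologues Nepl18, Sp212, Ser7 and scaf, the carriers Phk-3 and Jhbp2, the immune genes CG5909 and spz, the signalling genes moody, pyr and Ccm3, the intracellular proteins p47 and galla-2, and CG13840, CG17777, CG3770, CG15861, CG4325, CG6409, CG5883 and probe set 1627571_at. Only CG13117, CG31100, Tsp42Ei and probe set 1640642_at fell in all 3 transgenic lines. The A66QC fall of probe set 1640642_at, of -0.21, kept its call in 2 of 6 settings without 1 array. It was also lost with a trended robust prior (adjusted p = 0.107) and in a fit of the compared groups alone (adjusted p = 0.198). For galla-2 the rises kept their calls in 5 of 6 such settings in Atro and 4 of 6 in A75QN. In Control, where day 0 chose the members, the 21 early risers were also higher at day 2 than at day 0, by a median of 0.90.

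What happened next differed by genotype, and is given without a test because day 14 chose the members. Between day 2 and day 14 the median difference of the 21 early risers was 0.24 for Control, -0.10 for Atro, -0.60 for A66QC and -0.50 for A75QN. At day 14 they stood below their day 2 level in 7 cases for Control, 12 for Atro, 19 for A66QC and 18 for A75QN. For most of these members the polyQ levels at day 14 were lower than at day 2, which is in part set by how they were picked. The 23 members that were called in no line between day 0 and day 2 had median differences between day 2 and day 14 of 0.55 for Control, 0.44 for Atro, 0.16 for A66QC and 0.27 for A75QN.

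**Figure D2:**
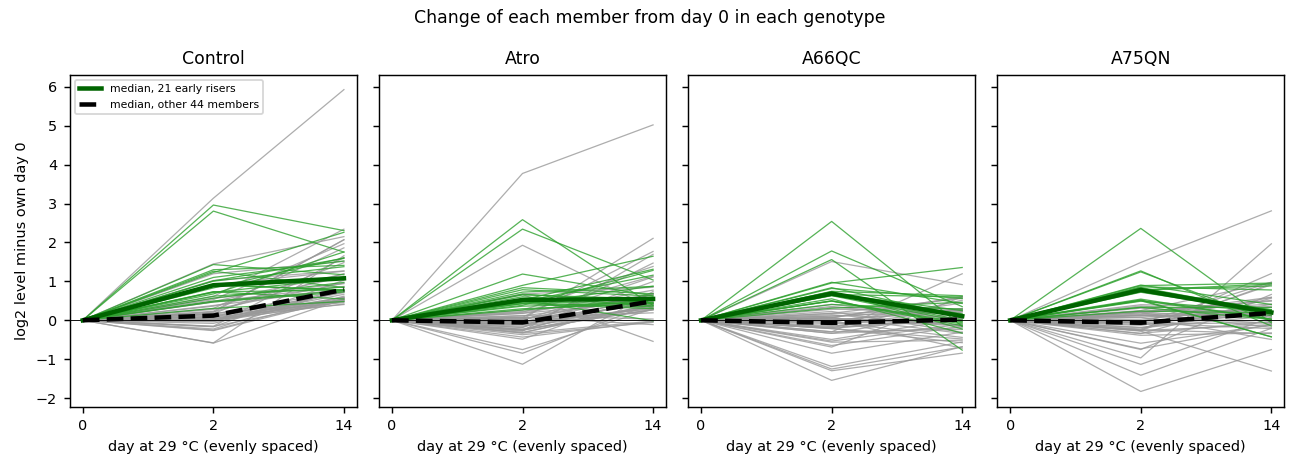
Log2 level of each of the 65 members minus its own day 0 mean, by genotype, at days 0, 2 and 14 (evenly spaced on the axis, means of 3 arrays). Green lines are the 21 members that rose from day 0 to day 2 in all 3 transgenic lines and grey lines are the other 44, with the medians thick. The green median is up at day 2 in every panel and returns near 0.11 in A66QC and 0.20 in A75QN at day 14.

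Whether the first 2 days differed between a polyQ line and Atro was tested on the difference of the changes. For A66QC against Atro 0 of the 65 members passed limma's test, where over all probe sets 0.0533% were lower and 0.234% higher. Left without Atro day 2 replicate 2, the test called 1. At an unadjusted p under 0.05 there were 16 members, with no share over all probe sets given, so nothing is read from that number. For A75QN against Atro 1 member was lower (1.54%, of all probe sets 0.41%) and 2 were higher (3.08%, of all 1.04%), and the count was 1 without Atro day 2 replicate 2. CG17777 gained less in A75QN than in Atro, with a difference of -1.07 (SE 0.161, adjusted p = 0.000210), a call kept whichever array was left out. CG7675 (0.57, SE 0.125, adjusted p = 0.0149) and Ser7 (0.55, SE 0.122, adjusted p = 0.0161) differed in the other direction, from a lower day 0 level in A75QN. For CG7675 that call was lost without Atro day 2 replicate 2 (adjusted p = 0.0586) or A75QN day 2 replicate 2 (adjusted p = 0.0531), and for Ser7 without Atro day 2 replicate 2 (adjusted p = 0.0636). The median difference of changes over the members was 0.07 for A66QC and 0.05 for A75QN as deposited and -0.02 for both after quantile normalization, so no direction is given for it.

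The second question was whether the polyQ lines already fell short at day 2. Against Control, 18 members (27.7%) were lower in A66QC, where 2.24% of all probe sets were, and 2 (3.08%, of all 1.2%) were higher. In A75QN 27 (41.5%, of all 3.02%) were lower and 1 (1.54%, of all 1.66%) was higher. The Atro line, with its wild-type transgene, was also lower than Control for 14 (21.5%, of all 2.01%) and higher for 2 (3.08%, of all 1.62%). The 3 comparisons share the Control arrays, so their lists are not independent. As above, the shares were not matched for level. Median differences from Control were -0.19 in A66QC, -0.28 in A75QN and -0.11 in Atro, against -0.83, -0.71 and -0.15 at day 14. Left without any 1 array, 13, 15 and 10 of the 18, 27 and 14 lower calls were kept throughout. The A75QN total of 28 calls was 17 without Control day 2 replicate 3 or without A75QN day 2 replicate 3.

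Against Atro at day 2 the counts were smaller. In A66QC 4 members (6.15%, of all probe sets 0.41%) were lower and 0 were higher (of all 0.107%). In A75QN 12 (18.5%, of all 1.41%) were lower and 1 (1.54%, of all 0.703%) was higher. How many of all probe sets were lower than both Control and Atro at day 2 is not given, so nothing is read from the number of such members. Lower than both Control and Atro at day 2 were CG17777 and Paics in A66QC. In A75QN these were CG13840, CG17777, Tsp42Ei and probe sets 1628884_at, 1629530_at, 1633053_at and 1639019_s_at. Of these 7, CG13840, CG17777 and probe set 1628884_at kept both calls whichever array was left out. Tsp42Ei kept its calls in 2 of 6 such settings against Control and 2 of 6 against Atro, and against Atro probe sets 1629530_at, 1633053_at and 1639019_s_at kept theirs in 5, 1 and 2 of 6. The A66QC count of 4 was 2 without Atro replicate 3, A66QC replicate 1 or A66QC replicate 2 of day 2. The A75QN count of 13 was 7 and 6 without Atro replicate 2 or 3, and 8, 7 and 6 without A75QN replicate 1, 2 or 3.

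At day 0, before the transgene was switched on, some members were already lower in the polyQ lines than in Atro. Median differences from Control at day 0 were 0.15 in Atro, 0.03 in A66QC and -0.08 in A75QN. These are given with no test, because Control day 0 helped to choose the members. Above Control were 54 members in Atro, 33 in A66QC and 25 in A75QN. The rule favours members that were low in Control at day 0, and no share over all probe sets is given. Which line departed from the others at day 0 is therefore not read from these counts. Against Atro at day 0, 10 members (15.4%) were lower in A66QC, where 8.14% of all probe sets were, and 1 (1.54%, of all 1.22%) was higher. In A75QN 20 (30.8%, of all 9.35%) were lower and 1 (1.54%, of all 1.92%) was higher. These counts moved with single arrays, the A66QC total of 11 being 2 without Atro day 0 replicate 1 or 3 or A66QC day 0 replicate 1, and 5 without A66QC day 0 replicate 2. The A75QN total of 21 was 10 without Atro day 0 replicate 3 and 13 without A75QN day 0 replicate 3. Kept whichever array was left out were the lower calls of Paics and probe set 1640642_at in A66QC, and of AhcyL2, CG14275, CG5909, CG7675, Nepl18, Ser7, Tsp42Ei and p47 in A75QN. The median difference over the members was -0.15 and -0.23 as deposited and shrank to -0.04 and -0.09 after quantile normalization. The plot of shares sets each count beside its background.

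**Figure D3:**
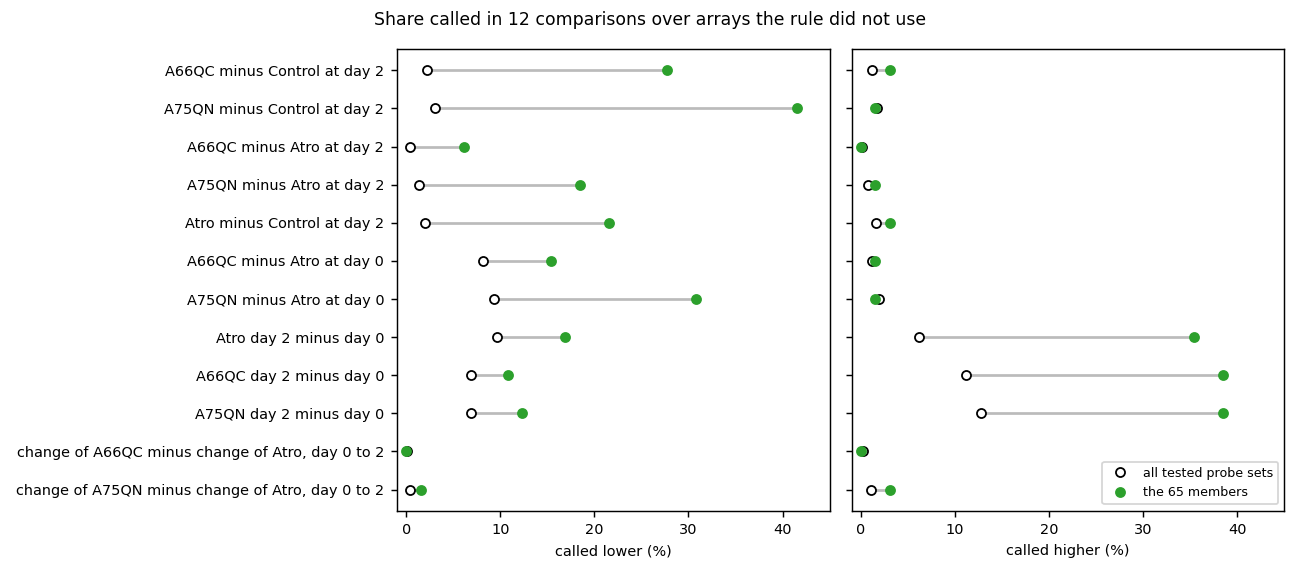
Percent of the 65 members (filled) and of all 18769 tested probe sets (open) called lower (left) or higher (right) at an adjusted p under 0.05 in each of the 12 tested comparisons. The members lie to the right of the background for the day 2 levels below Control and for the rises from day 0 to day 2, and near 0 with the background for the differences between changes. The members and the background were not matched for level.

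Humoral immunity is represented by 9 members, from the protease grass and the ligand spz upstream of Toll to effectors made downstream. All 9 differ from Control by -0.35 to -1.88 in A66QC and by -0.37 to -2.06 in A75QN at day 14, as the rule requires. On the independent arrays 3 of the 9 rose from day 0 to day 2 in each polyQ line, where 11.2% of all probe sets rose in A66QC and 12.8% in A75QN, and in both these were CG5909, grass and spz. In Atro 2 of the 9 rose, where 6.12% of all did, namely CG5909 and spz. Drs encodes drosomycin, the antifungal peptide used as a readout of Toll. Drs read 11.39, 12.80 and 11.96 for Control, 10.07, 10.06 and 12.62 for Atro, 10.59, 10.31 and 9.62 for A66QC and 9.56, 10.45 and 9.97 for A75QN at day 14. The Control arrays lay above all polyQ arrays, and the Atro arrays overlapped both. At day 2 the Drs levels were 10.13, 9.94 and 10.48 for Control, 11.16, 12.49 and 12.71 for Atro, 9.32, 9.34 and 9.26 for A66QC and 8.98, 8.75 and 9.02 for A75QN. There the polyQ lines were lowest and tight, and Atro was highest. At day 0 they were 8.48, 12.27 and 9.18 for Control, 9.82, 12.40 and 12.15 for Atro, 10.29, 9.57 and 12.69 for A66QC and 11.69, 10.28 and 10.28 for A75QN, spreading over more than 2 log2 units within Control, Atro and A66QC, with no order by genotype. Drs differed from Atro at day 2 by -2.81 (adjusted p = 0.116) in A66QC and -3.20 (adjusted p = 0.0160) in A75QN, with an SE of 0.764. The A75QN call was lost without Atro day 2 replicate 2 (adjusted p = 0.0603), Atro day 2 replicate 3 (adjusted p = 0.119), A75QN day 2 replicate 1 (adjusted p = 0.0515), A75QN day 2 replicate 2 (adjusted p = 0.0789) or A75QN day 2 replicate 3 (adjusted p = 0.0597). BomBc3 and BomT3 are Bomanins, short secreted peptides induced by Toll that flies need to survive many infections. At day 2 BomT3, named after its values were seen, read 11.23, 10.95 and 11.21 for Control, 10.29, 10.57 and 10.65 for Atro, 10.07, 10.01 and 10.45 for A66QC and 10.33, 10.44 and 10.20 for A75QN. Each Control array was above every transgenic array. It was lower than Control, by a log2 difference of -0.95 (adjusted p = 5.96e-05) in A66QC, -0.81 (adjusted p = 0.000531) in A75QN and -0.62 (adjusted p = 0.00967) in Atro, with an SE of 0.148. The calls of both polyQ lines were kept whichever array was left out, and that of Atro was lost without Control day 2 replicate 1 (adjusted p = 0.0637), Control day 2 replicate 3 (adjusted p = 0.0568) or Atro day 2 replicate 1 (adjusted p = 0.0887). At day 14 BomT3 read 11.30, 11.80 and 11.32 for Control, 10.78, 10.30 and 10.81 for Atro, 10.09, 9.82 and 10.09 for A66QC and 10.33, 10.25 and 9.96 for A75QN, with the Atro arrays between Control and most polyQ arrays. BomBc3 was lower than Control at day 2, by a log2 difference of -1.34 (adjusted p = 0.0178) in A66QC and -1.35 (adjusted p = 0.0140) in A75QN (SE 0.341). With array weights the A66QC call was lost (adjusted p = 0.201). The calls were also lost without Control day 2 replicate 1 (adjusted p = 0.0582), Control day 2 replicate 3 (adjusted p = 0.0854), A66QC day 2 replicate 1 (adjusted p = 0.0590) or A66QC day 2 replicate 2 (adjusted p = 0.0565) for A66QC and without Control day 2 replicate 3 (adjusted p = 0.0717) or A75QN day 2 replicate 3 (adjusted p = 0.0862) for A75QN.

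CG5909, a trypsin-like protease gene beside grass, was an early riser. It rose from day 0 to day 2 by 1.19 (adjusted p = 2.46e-10) in Atro, 1.56 (adjusted p = 5.81e-13) in A66QC and 1.24 (adjusted p = 6.26e-11) in A75QN, with an SE of 0.102. At day 2 it read 9.15, 8.98 and 9.28 for Control, 9.65, 9.58 and 9.30 for Atro, 9.46, 9.74 and 9.87 for A66QC and 9.18, 9.00 and 9.09 for A75QN, and A66QC was above Control by 0.55 (adjusted p = 0.000654) and Atro by 0.37 (adjusted p = 0.0316). Both calls were lost with array weights (adjusted p = 0.152 and 0.167), and that of Atro also without Control replicate 1 or 2 or Atro replicate 1 or 2 of day 2. The Atro call was lost as well in a fit of the compared groups alone (adjusted p = 0.0679). Without the arrays of outlying spread the Atro value was 0.26 (adjusted p = 0.257). At day 14 it read 8.96, 9.10 and 8.89 for Control, 8.99, 8.81 and 9.05 for Atro, 7.39, 7.32 and 7.37 for A66QC and 7.96, 7.58 and 7.93 for A75QN, so that the polyQ arrays were all below the Control and Atro arrays. The polyQ arrays thus lay within or above the range of Control at day 2, and their means differed from it by -1.62 and -1.16 at day 14. The ligand spz followed the same course with smaller steps, rising by 0.45 (adjusted p = 0.000131), 0.49 (adjusted p = 3.14e-05) and 0.49 (adjusted p = 2.99e-05) in Atro, A66QC and A75QN (SE 0.0813), with the A66QC value at 0.32 without the arrays of outlying spread. At day 14 it lay at 8.91 ± 0.028 (SD, n = 3) in A66QC and 9.59 ± 0.14 in Control. The protease grass rose by 0.41 (adjusted p = 0.000115) in A66QC and 0.37 (adjusted p = 0.000409) in A75QN, and its 0.18 in Atro did not pass (adjusted p = 0.108). Tsf1, transferrin, binds iron in the haemolymph, and it was called in none of the 12 tested comparisons. It read 10.41 ± 0.26 for Control, 10.24 ± 0.23 for Atro, 9.42 ± 0.14 for A66QC and 9.68 ± 0.42 for A75QN at day 14 (SD, n = 3). A second, brighter Tsf1 probe set had a Control difference of 1.36 from day 0 to day 14 and differed by -0.30 and -0.21 from Control and by -0.33 and -0.23 from Atro, so it missed the rule in A75QN. The serpin Spn77Ba, an inhibitor of the melanization cascade, fell from day 0 to day 2 in Atro, by a log2 difference of -0.31 (adjusted p = 0.00640), a call lost without Atro day 2 replicate 2 (adjusted p = 0.0511). CG6435, a lysozyme-like gene named after its values were seen, differed from Atro at day 0 in A75QN by -0.37 (adjusted p = 0.00714), a call lost after quantile normalization (adjusted p = 0.0761) and without Atro day 0 replicate 3 (adjusted p = 0.0564) or A75QN day 0 replicate 3 (adjusted p = 0.0585). At day 0 Control replicate 2 was the highest Control array for each of Drs, BomBc3 and Tsf1.

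Among the 6 other peptidases and homologues, Ser7, Sp212, scaf and Nepl18 rose from day 0 to day 2 in every transgenic line. The call of Ser7 in Atro was lost without Atro day 0 replicate 1 (adjusted p = 0.0529), Atro day 0 replicate 2 (adjusted p = 0.0579), Atro day 2 replicate 1 (adjusted p = 0.0701) or Atro day 2 replicate 3 (adjusted p = 0.0593). Ser7 is a serine protease gene, Sp212 and scaf encode serine protease homologues, and Nepl18 a neprilysin-like metallopeptidase. Ser7 read 10.78, 10.64 and 10.89 for Control, 10.05, 9.87 and 10.02 for Atro, 10.04, 10.13 and 10.33 for A66QC and 10.07, 10.06 and 10.05 for A75QN at day 2. The Control arrays were above all others, and the 3 transgenic lines overlapped. At day 14 Ser7 read 10.53, 10.66 and 10.33 for Control, 10.08, 10.06 and 10.22 for Atro, 9.49, 9.47 and 9.52 for A66QC and 9.57, 9.33 and 9.42 for A75QN, and the polyQ arrays lay below those of Atro. Ser7 was lower than Control at day 2, by a log2 difference of -0.79 (adjusted p = 1e-07) in Atro, -0.61 (adjusted p = 1.47e-05) in A66QC and -0.71 (adjusted p = 8.04e-07) in A75QN (SE 0.0862), and Sp212 by -0.46 (adjusted p = 0.000617), -0.53 (adjusted p = 8.18e-05) and -0.60 (adjusted p = 9.38e-06) (SE 0.0838). All 6 calls were kept whichever array was left out. At day 2 neither gene was called between a polyQ line and Atro, with Ser7 at 0.18 (adjusted p = 0.633) and 0.08 (adjusted p = 0.917) and Sp212 at -0.07 (adjusted p = 0.906) and -0.14 (adjusted p = 0.662). For scaf, which lacks a catalytic residue and acts on basement membranes and signalling in embryos, the rises were 0.36 (adjusted p = 0.0160), 0.74 (adjusted p = 3.89e-06) and 0.52 (adjusted p = 0.000402) in Atro, A66QC and A75QN (SE 0.106), the Atro call being lost without Atro day 0 replicate 2 (adjusted p = 0.157) or Atro day 2 replicate 1 (adjusted p = 0.0758), and its value being 0.24 without the former. By day 14 scaf stood at 10.74 ± 0.16 for Control, 10.30 ± 0.070 for Atro, 9.27 ± 0.17 for A66QC and 9.15 ± 0.088 for A75QN (SD, n = 3), and the polyQ means were below their own day 0 means of 9.49 and 9.58. Nepl18 kept more of its rise, with 8.65 ± 0.032 in A66QC at day 14 against 8.76 ± 0.14 at day 2. The cathepsin-like CG6357 was called in none of the comparisons, and CG1299, a serine protease gene, rose in none of the lines; both were named after their values were seen.

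Transporters and carriers numbered 7 and held the member with the deepest mean shortfall. dmGlut encodes a membrane transporter of the solute carrier superfamily. It read 9.82, 10.00 and 9.89 for Control, 9.58, 9.41 and 9.56 for Atro, 7.69, 7.63 and 7.64 for A66QC and 7.95, 8.02 and 8.02 for A75QN at day 14. Control and Atro were high on every array, and all polyQ arrays were more than 1 log2 unit below them. At day 2 the levels were 8.22, 8.07 and 8.24 for Control, 7.93, 7.72 and 7.83 for Atro, 7.97, 7.97 and 8.06 for A66QC and 7.79, 7.80 and 7.73 for A75QN. At day 0 they were 7.47, 7.50 and 7.72 for Control, 7.71, 7.67 and 7.88 for Atro, 7.70, 7.51 and 7.71 for A66QC and 7.75, 7.91 and 7.86 for A75QN. The genotypes lay much closer together at both ages. At day 14 dmGlut differed by -2.25 and -1.91 against Control and -1.87 and -1.52 against Atro in A66QC and A75QN, with an SE of 0.0702. On the independent arrays the gap to Control at day 2 was -0.40 (adjusted p = 0.000283) in A75QN and -0.35 (adjusted p = 0.00192) in Atro, and -0.18 (adjusted p = 0.223) in A66QC, which did not pass. From day 0 to day 2 dmGlut rose in A66QC by 0.36 (adjusted p = 0.000330), and the values of 0.07 (adjusted p = 0.591) in Atro and -0.07 (adjusted p = 0.648) in A75QN did not pass. Its early course therefore did not order the lines as day 14 did, and most of the Control and Atro level was gained after day 2.

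Phk-3, a pherokine of the OS-D family of small secreted carriers, rose early in all transgenic lines and kept part of its gain in the polyQ lines. The rises to day 2 were 0.90 (adjusted p = 9.31e-09) in Atro, 0.96 (adjusted p = 2.46e-09) in A66QC and 0.78 (adjusted p = 1e-07) in A75QN (SE 0.0917). At day 14 Phk-3 read 9.95, 10.03 and 9.82 for Control, 9.72, 9.53 and 9.68 for Atro, 9.27, 9.05 and 9.17 for A66QC and 8.91, 8.49 and 8.76 for A75QN. The order was Control, Atro, A66QC and A75QN with no overlap between neighbouring groups. Jhbp2 and Jhbp3 are neighbouring genes of the family of haemolymph juvenile hormone binding proteins. Jhbp2 rose by 0.52 (adjusted p = 4.06e-06), 0.55 (adjusted p = 1.47e-06) and 0.50 (adjusted p = 5.82e-06) (SE 0.0749) and Jhbp3 was called nowhere, with 0.11 (adjusted p = 0.471), 0.03 (adjusted p = 0.870) and 0.13 (adjusted p = 0.378). At day 14 Jhbp2 was 11.48 ± 0.13 for Control, 10.39 ± 0.026 for Atro, 9.88 ± 0.0085 for A66QC and 9.93 ± 0.087 for A75QN (SD, n = 3). Its Atro level thus lay -1.09 from Control, closer to the polyQ lines than to Control. CG31100, which encodes a sugar transporter-like protein, fell from day 0 to day 2, by a log2 difference of -0.49 (adjusted p = 5.39e-05) in Atro, -0.34 (adjusted p = 0.00332) in A66QC and -0.33 (adjusted p = 0.00323) in A75QN (SE 0.0828), the A66QC call being lost with array weights (adjusted p = 0.0854). At day 14 it read 8.56, 8.71 and 8.65 for Control, 8.79, 8.56 and 8.65 for Atro, 7.52, 7.55 and 7.51 for A66QC and 7.78, 7.61 and 7.84 for A75QN, where Atro overlapped Control and every polyQ array was lower. blot, a transporter of the sodium neurotransmitter symporter family, was below Control at day 2, by a log2 difference of -0.41 (adjusted p = 0.00293) in A66QC, a call kept whichever array was left out but not in a fit of the compared groups alone (adjusted p = 0.0750), and by -0.37 (adjusted p = 0.00698) in A75QN, a call lost without Control day 2 replicate 1 (adjusted p = 0.0535), Control day 2 replicate 3 (adjusted p = 0.0713) or A75QN day 2 replicate 3 (adjusted p = 0.0648). The sugar transporter gene sut2 was near background in 9 of 12 groups and was called nowhere.

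The 6 members of membranes, matrix and cuticle included 3 tetraspanins of the Tsp42E cluster, membrane proteins that organise other surface proteins. Tsp42Ea, named after its values were seen, read 11.80, 11.96 and 11.69 for Control, 11.35, 11.33 and 11.43 for Atro, 10.71, 10.53 and 10.59 for A66QC and 10.88, 10.67 and 10.69 for A75QN at day 14. Every polyQ array was below every Atro array, and Control was above all. At day 2 it read 11.36, 11.05 and 11.40 for Control, 11.58, 11.33 and 11.49 for Atro, 11.17, 11.35 and 11.46 for A66QC and 11.39, 11.32 and 11.24 for A75QN, with all genotypes overlapping, and it was called in none of the tested comparisons. At day 14 the polyQ means were below their own day 0 means, by a log2 difference of -0.72 and -0.49 (SE 0.0911). Tsp42Ei fell in all 3 transgenic lines from day 0 to day 2, by a log2 difference of -0.75 (adjusted p = 1.11e-07) in Atro, -0.85 (adjusted p = 1.1e-08) in A66QC and -0.73 (adjusted p = 1.23e-07) in A75QN (SE 0.0876), calls kept whichever array was left out. In Control its day 2 mean was also -0.59 from day 0. At day 14 Tsp42Ei stood at 9.45 ± 0.031 for Control, 9.43 ± 0.063 for Atro, 8.85 ± 0.11 for A66QC and 8.65 ± 0.061 for A75QN (SD, n = 3). Its neighbour Tsp42Eh fell in A75QN, by a log2 difference of -0.39 (adjusted p = 0.00290), where the values of -0.15 (adjusted p = 0.338) in Atro and -0.18 (adjusted p = 0.213) in A66QC did not pass. Acp65Aa, an adult cuticle protein, was flat or lower at day 2 and then parted sharply. It read 8.78, 8.77 and 8.67 for Control, 8.65, 8.61 and 8.58 for Atro, 7.10, 7.37 and 7.15 for A66QC and 6.68, 6.64 and 6.80 for A75QN at day 14, a gap of -1.41 and -1.91 to Atro in A66QC and A75QN (SE 0.0796). At day 2 it was lower than Control, by a log2 difference of -0.34 (adjusted p = 0.00967) in Atro and -0.42 (adjusted p = 0.000799) in A75QN, both kept whichever array was left out, and by -0.30 (adjusted p = 0.0251) in A66QC, lost without Control day 2 replicate 1 (adjusted p = 0.0914), Control day 2 replicate 2 (adjusted p = 0.0542), Control day 2 replicate 3 (adjusted p = 0.0846), A66QC day 2 replicate 1 (adjusted p = 0.0952) or A66QC day 2 replicate 2 (adjusted p = 0.129). Tig, tiggrin, is an extracellular ligand of integrins, and it was the member whose Atro level most exceeded Control at day 14, by 0.62 (SE 0.0795). Dys, dystrophin, links the cytoskeleton to the matrix, and the member probe set was called nowhere, with 4 further Dys probe sets outside the rule and 3 of them near background.

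Signalling was represented by moody, pyr, Ccm3 and Mad. moody encodes a G protein-coupled receptor of the surface glia that is needed for the blood-brain barrier, and it is named here after its values were seen. At day 0 moody read 9.79, 10.02 and 10.10 for Control, 10.19, 10.02 and 10.13 for Atro, 9.89, 9.78 and 9.99 for A66QC and 9.91, 9.77 and 9.85 for A75QN. At day 2 it read 10.60, 10.50 and 10.67 for Control, 10.92, 10.57 and 10.80 for Atro, 10.59, 10.59 and 10.99 for A66QC and 10.70, 10.60 and 10.58 for A75QN. At day 14 the levels were 10.76, 10.95 and 10.77 for Control, 10.73, 10.60 and 10.66 for Atro, 10.07, 9.94 and 9.97 for A66QC and 10.15, 9.99 and 10.19 for A75QN. All genotypes were higher at day 2 than at day 0 without overlap, and by day 14 only Control and Atro were still near that level. The rises were 0.65 (adjusted p = 3.89e-06) in Atro, 0.84 (adjusted p = 4.27e-08) in A66QC and 0.79 (adjusted p = 1.09e-07) in A75QN (SE 0.0930), kept whichever array was left out. The difference of these changes from Atro was 0.19 (adjusted p = 0.615) for A66QC and 0.13 (adjusted p = 0.688) for A75QN, so neither passed. The other 3 glial markers at day 14 averaged 10.02 in A66QC, below the 10.24 of Control, and 10.26 in A75QN. pyr encodes a fibroblast growth factor ligand of the receptor Heartless, and it rose by 0.67 (adjusted p = 9.78e-08), 0.50 (adjusted p = 1.45e-05) and 0.72 (adjusted p = 1.85e-08) (SE 0.0777). Its day 14 levels were 7.46 ± 0.22 for Control, 7.22 ± 0.057 for Atro, 6.63 ± 0.049 for A66QC and 6.89 ± 0.10 for A75QN (SD, n = 3). Ccm3, named after its values were seen, acts with germinal centre kinases, and it rose in A75QN by 0.51 (adjusted p = 0.00292), kept whichever array was left out, while its Atro and A66QC calls were lost without Atro day 2 replicate 1 (adjusted p = 0.0783) for Atro and A66QC day 0 replicate 2 (adjusted p = 0.0514) or A66QC day 2 replicate 3 (adjusted p = 0.0702) for A66QC. Mad, the transcription factor downstream of the ligand Dpp, sat at the edge of the rule and was called in none of the tested comparisons.

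**Figure D4:**
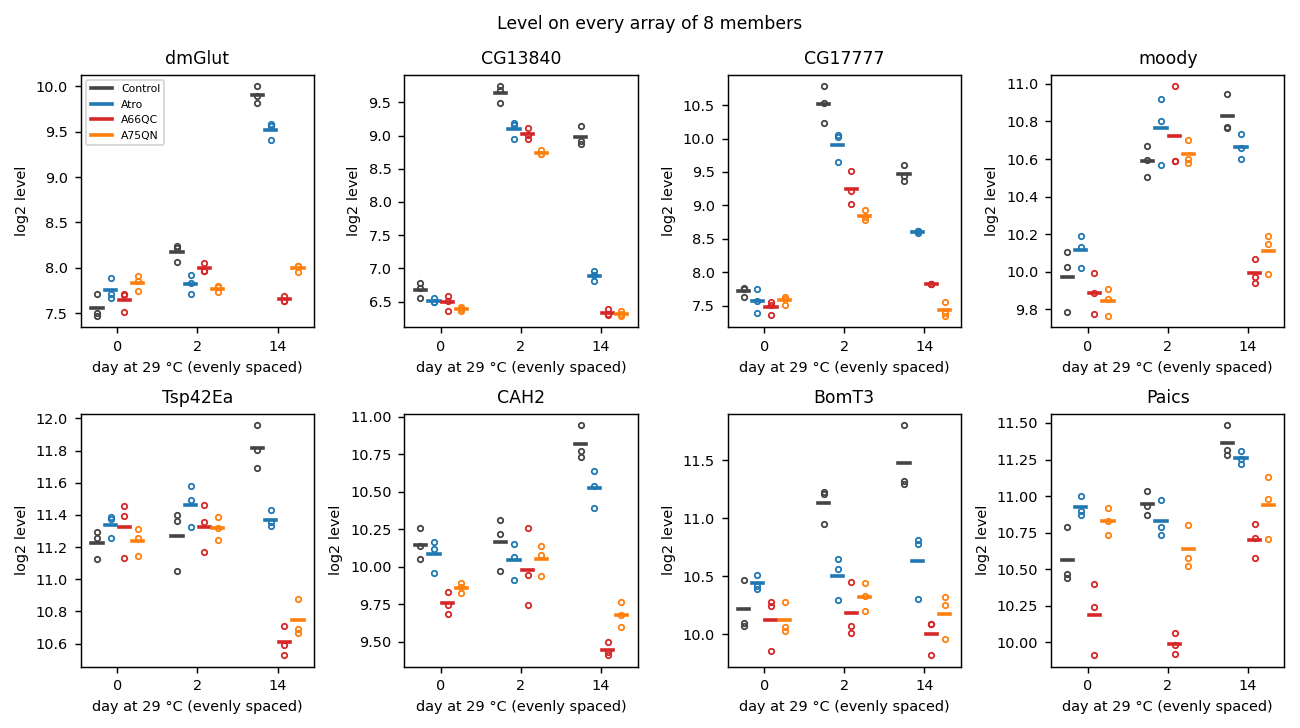
Log2 level on every array of 8 members by day (evenly spaced on the axis) and genotype, with points for the 3 arrays of a group and a bar for their mean. For dmGlut, Tsp42Ea and CAH2 the genotypes lie close at day 2 and the polyQ lines are lower at day 14, while CG13840, CG17777 and moody are up at day 2 in all genotypes and at or near their day 0 level in the polyQ lines at day 14.

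Enzymes and other intracellular proteins numbered 10. Paics encodes an enzyme of purine synthesis, and it was lower in A66QC than in Atro at every age. Its day 0 levels were 10.44, 10.47 and 10.79 for Control, 10.87, 11.00 and 10.90 for Atro, 10.40, 9.91 and 10.24 for A66QC and 10.92, 10.83 and 10.73 for A75QN. Its day 2 levels were 10.93, 10.87 and 11.04 for Control, 10.79, 10.74 and 10.97 for Atro, 9.92, 9.98 and 10.06 for A66QC and 10.58, 10.80 and 10.52 for A75QN. Its day 14 levels were 11.31, 11.48 and 11.28 for Control, 11.31, 11.22 and 11.25 for Atro, 10.57, 10.81 and 10.71 for A66QC and 11.13, 10.71 and 10.98 for A75QN. The A66QC arrays were below all Atro arrays at each age, and at day 14 they overlapped those of A75QN. Paics was lower in A66QC than in Atro, by a log2 difference of -0.74 (adjusted p = 5.88e-05) at day 0 and -0.84 (adjusted p = 2.24e-05) at day 2, and than in Control by -0.96 (adjusted p = 1.25e-07) at day 2 (SE 0.106). In A75QN the differences from Atro were -0.10 (adjusted p = 0.559) at day 0 and -0.20 (adjusted p = 0.588) at day 2, and neither passed. p47 is a cofactor of the ATPase TER94, which extracts proteins for degradation. It rose by 0.60 (adjusted p = 7.77e-07) in Atro, 0.69 (adjusted p = 7.36e-08) in A66QC and 0.78 (adjusted p = 5.32e-09) in A75QN (SE 0.0784), and at day 2 it was below Control, by a log2 difference of -0.37 (adjusted p = 0.00306) in Atro, -0.50 (adjusted p = 6.32e-05) in A66QC and -0.60 (adjusted p = 3.06e-06) in A75QN. The Atro call was lost without Control day 2 replicate 1 (adjusted p = 0.0619) and in a fit of the compared groups alone (adjusted p = 0.0538). CAH2, a carbonic anhydrase, read 10.77, 10.94 and 10.73 for Control, 10.64, 10.39 and 10.54 for Atro, 9.49, 9.43 and 9.41 for A66QC and 9.76, 9.68 and 9.60 for A75QN at day 14. The polyQ arrays were all below those of Control and Atro. At day 2 CAH2 read 10.21, 9.97 and 10.31 for Control, 10.15, 9.91 and 10.06 for Atro, 9.74, 9.94 and 10.26 for A66QC and 10.08, 10.14 and 9.93 for A75QN, with all genotypes overlapping and no call in any comparison of that day. AhcyL2, a relative of adenosylhomocysteinase, was lower than in Atro at day 0, by a log2 difference of -0.31 (adjusted p = 0.00184) in A75QN (-0.16 after quantile normalization) and by -0.21 (adjusted p = 0.0406) in A66QC, and at day 2 A75QN differed by -0.07 (adjusted p = 0.895). The A66QC call was lost after quantile normalization (adjusted p = 0.682) and without Atro day 0 replicate 1 (adjusted p = 0.230), Atro day 0 replicate 3 (adjusted p = 0.139), A66QC day 0 replicate 1 (adjusted p = 0.133) or A66QC day 0 replicate 2 (adjusted p = 0.165). CG7675, which encodes a short-chain dehydrogenase, was lower in A75QN than in Atro at day 0, by a log2 difference of -0.65 (adjusted p = 6.39e-06), and at day 14 it differed by -1.13 and -1.12 against Control and -0.94 and -0.93 against Atro in A66QC and A75QN (SE 0.0886). CG4757, a carboxylesterase gene, varied widely between replicates, with 8.12, 11.03 and 8.04 in Control at day 0. It read 9.03, 9.26 and 9.60 for Control, 10.18, 10.30 and 10.12 for Atro, 8.82, 8.78 and 8.93 for A66QC and 7.74, 7.68 and 7.82 for A75QN at day 2, where A75QN differed from Atro by -2.45 (adjusted p = 0.0189), a call lost with a trended robust prior (adjusted p = 0.0546) and without Atro day 2 replicate 1 (adjusted p = 0.0658), Atro day 2 replicate 2 (adjusted p = 0.0548), Atro day 2 replicate 3 (adjusted p = 0.0752), A75QN day 2 replicate 1 (adjusted p = 0.0632), A75QN day 2 replicate 2 (adjusted p = 0.0839) or A75QN day 2 replicate 3 (adjusted p = 0.0692). beta-Man, a lysosomal mannosidase named after its values were seen, egh, a glycosyltransferase of glycolipids, galla-2, of iron-sulphur cluster assembly, and the vesicle fusion protein Syb differed from Control at day 14 by -0.55, -0.42, -0.46 and -0.67 in A66QC. For egh a second probe set showed a Control difference of only 0.10 from day 0 to day 14, with values of -0.65 and -0.46 against Control in A66QC and A75QN, so the 2 probe sets disagree on the Control course. For Syb 2 further probe sets had Control differences of 0.26 and 0.68, and both missed the rule.

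The 23 members with no assigned role held the largest early rises. CG17777 read 7.63, 7.75 and 7.76 for Control, 7.57, 7.39 and 7.75 for Atro, 7.55, 7.36 and 7.50 for A66QC and 7.63, 7.59 and 7.52 for A75QN at day 0. At day 2 it read 10.79, 10.23 and 10.53 for Control, 10.03, 9.65 and 10.06 for Atro, 9.22, 9.02 and 9.52 for A66QC and 8.83, 8.78 and 8.94 for A75QN. At day 14 the levels were 9.43, 9.60 and 9.36 for Control, 8.58, 8.62 and 8.61 for Atro, 7.82, 7.83 and 7.82 for A66QC and 7.40, 7.35 and 7.56 for A75QN. From like levels at day 0, the arrays at day 2 followed the order Control, Atro, A66QC, A75QN with no overlap, and at day 14 the same order held at lower levels. It was lower than Control at day 2, by a log2 difference of -0.61 (adjusted p = 0.000869) in Atro, -1.27 (adjusted p = 2.25e-09) in A66QC and -1.67 (adjusted p = 3.21e-12) in A75QN, and lower than Atro, by a log2 difference of -0.66 (adjusted p = 0.00145) in A66QC and -1.06 (adjusted p = 2.54e-07) in A75QN (SE 0.114). It was the only member called lower in all 5 comparisons of day 2, and each of the 5 calls was kept whichever array was left out. That of A66QC against Atro was lost in a fit of the compared groups alone (adjusted p = 0.101). CG13840 rose further, from 6.49 ± 0.12 to 9.03 ± 0.086 in A66QC and from 6.38 ± 0.035 to 8.74 ± 0.031 in A75QN (SD, n = 3). At day 2 the levels were 9.69, 9.49 and 9.75 for Control, 9.19, 8.94 and 9.15 for Atro, 9.00, 9.12 and 8.95 for A66QC and 8.72, 8.78 and 8.73 for A75QN, where Control was above all others and A75QN below all. Against Control at day 2 CG13840 differed by -0.54 (adjusted p = 5.61e-06) in Atro, -0.61 (adjusted p = 4.94e-07) in A66QC and -0.90 (adjusted p = 1.7e-10) in A75QN, and A75QN differed from Atro by -0.35 (adjusted p = 0.00398) (SE 0.0727). At day 14 it read 8.88, 9.15 and 8.92 for Control, 6.81, 6.96 and 6.90 for Atro, 6.30, 6.39 and 6.29 for A66QC and 6.31, 6.29 and 6.36 for A75QN. Only Control stayed high, while Atro was near its day 0 level and the polyQ lines were near background, so the sizes of these differences may be understated. Atro thus lay -2.09 from Control, the widest such gap among the members, and the polyQ lines a further -0.56 and -0.57 from Atro. CG15861 and its neighbour CG3770 both rose in every transgenic line, CG15861 by 0.79 (adjusted p = 3.61e-10), 0.71 (adjusted p = 2.77e-09) and 0.54 (adjusted p = 3.42e-07) in Atro, A66QC and A75QN (SE 0.0686), though from near background. CG3770 rose by 0.52 (adjusted p = 8.46e-07), 0.64 (adjusted p = 2.11e-08) and 0.33 (adjusted p = 0.000429) (SE 0.0680). CG4325, beside moody, was below Control at day 2, by a log2 difference of -0.60 (adjusted p = 1.68e-09), -0.47 (adjusted p = 1.81e-07) and -0.65 (adjusted p = 2.06e-10) in Atro, A66QC and A75QN (SE 0.0534), and its day 14 arrays in Atro (7.91, 7.89 and 7.97) overlapped those of Control (7.98, 8.09 and 7.92).

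CG13117 showed the opposite early course. At day 0 it read 9.01, 9.15 and 9.15 for Control, 9.17, 8.97 and 9.31 for Atro, 9.22, 8.97 and 9.22 for A66QC and 9.02, 8.90 and 8.91 for A75QN. By day 2 the levels were 8.94, 8.72 and 8.90 for Control, 7.93, 7.98 and 8.15 for Atro, 7.95, 7.97 and 7.92 for A66QC and 7.86, 7.84 and 7.73 for A75QN. Every transgenic array of day 2 was below every one of day 0, and so were the Control arrays, by less. The falls were -1.13 (adjusted p = 5.1e-11) in Atro, -1.19 (adjusted p = 1.38e-11) in A66QC and -1.13 (adjusted p = 2.7e-11) in A75QN (SE 0.0894). Against Control at day 2 it was lower, by a log2 difference of -0.83 (adjusted p = 7.68e-08), -0.90 (adjusted p = 1.26e-08) and -1.04 (adjusted p = 5.66e-10) in the same lines. At day 14 it read 9.75, 9.85 and 9.57 for Control, 9.93, 9.94 and 9.80 for Atro, 8.78, 8.53 and 8.43 for A66QC and 8.93, 8.99 and 9.15 for A75QN, where Atro overlapped Control and the polyQ arrays were below both. CG14275 read 9.43, 9.45 and 10.18 in Atro at day 2, where replicate 3 stood above the others. Its difference from Control there was 0.61 (adjusted p = 0.000528), which was 0.36 without replicate 3 and did not pass in a fit of the compared groups alone (adjusted p = 0.0620). In A75QN it differed from Atro by -0.53 (adjusted p = 0.00175) at day 0 and by -0.67 (adjusted p = 0.000233) at day 2, the latter being -0.42 without Atro replicate 3. In A66QC the values were -0.34 (adjusted p = 0.0485) and -0.46 (adjusted p = 0.0438), and without Atro replicate 3 the day 2 call was lost (adjusted p = 0.501), while the day 0 call was lost without any 1 of its 6 arrays. Of the probe sets without a gene, 1623635_at had the widest Control difference between day 0 and day 14, from 6.64, 6.93 and 6.70 to 12.72, 12.90 and 12.42. For 1623635_at the polyQ day 0 arrays did not agree among themselves, with 8.62, 8.19 and 12.07 in A66QC and 8.51, 8.23 and 10.87 in A75QN, and its rise of 3.77 in Atro (probe set 1623635_at, adjusted p = 1.81e-05) was the only call it had. In probe set 1640642_at the polyQ lines lay on opposite sides of Atro at day 0. The levels were then 10.90, 10.62 and 10.90 in A66QC, 11.73, 11.67 and 11.71 in A75QN and 11.31, 11.11 and 11.38 in Atro. The differences of probe set 1640642_at from Atro at day 0 were -0.46 (adjusted p = 0.000304) and 0.44 (adjusted p = 0.000169), and at day 14 both lines were below Atro, at 10.23 ± 0.089 and 10.40 ± 0.089 (SD, n = 3).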

How the data were processed

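The values are those deposited for 36 Affymetrix arrays, 3 for each of 12 groups. They are log2 levels, 1 per probe set and array, made by the authors in R (version 2.11.0 per the submitters' processing notes). How background, summarization and normalization were handled is, in the sources used here, not given. Array data have no read depth, and the number of arrays and the signal over background limit the precision. Of the tested probe sets, 13646 carry 1 gene symbol in the platform annotation, 402 several and 4721 none. All arrays entered 1 linear model of group means in limma 3.58.1 (R 4.3.3) with 24 residual and 6.49 prior degrees of freedom. P-values were adjusted over all 18769 probe sets by the Benjamini-Hochberg method, and a member is called at an adjusted p under 0.05. Each difference between 2 group means of a member has the same SE. The members, gene lists, markers and roles were chosen with earlier results of these data known. Named members were those with the largest Control difference or shortfall, the smallest adjusted p (up to 6 a comparison and direction), the nearest to a threshold and those on a list, 48 in all, and the other 17 appear with their values known. Alternatives were quantile and cyclic loess normalization, the brighter probe sets, a trended robust prior, array weights, the compared groups alone, a replicate block, leaving out each array, and leaving out the arrays of outlying spread. The model was also run on simulated data, drawn with the variances of the fit to these data. Same-numbered replicates deviated together in every pair (r over 0.1) in 2 of 10 comparisons, Atro minus Control at day 2 and Atro day 2 minus day 0. Python 3.11.15 with matplotlib 3.10.9 drew the figures.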

Additional observations from a re-analysis of the deposited data

Results flagged for a closer look

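3 members differed in their change from day 0 to day 2 between A75QN and Atro by a test of the difference itself. CG17777 had the smaller gain in A75QN, with a difference of -1.07 (adjusted p = 0.000210, limma), with A75QN day 2 arrays below all 3 of Atro. CG7675 differed by 0.57 (adjusted p = 0.0149) and Ser7 by 0.55 (adjusted p = 0.0161), both with the more positive change in A75QN, and both calls were lost without Atro replicate 2 of day 2, that of CG7675 also without A75QN replicate 2. The poly-A spike-in probe sets, outside the fly genes, averaged at least 13.2 on the 6 arrays of A75QN at days 2 and 14 and at most 10.8 on the other 30, and their part in the A75QN values was not tested. The A66QC arrays of the same days were among these 30.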

How the results depend on the processing

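No call of a member changed direction in any alternative. Recomputing the 215 calls in the alternatives gave 3028 results, of which 2686 kept the call and 342 lost it, and 82 calls were lost at least once. The number of probe sets that met the rule was 65, and 42 after quantile normalization, 42 after cyclic loess and 56 without the arrays of outlying spread. Leaving out 1 array gave 58 to 74, and 48 members met the rule in all 15 such settings. Quantile normalization gave 10 calls for A66QC minus Atro at day 2 (4 as deposited), 29 for Atro minus Control at day 2 (16), 1 for the change of A66QC minus Atro (0) and 8 for that of A75QN (3), and cyclic loess gave 12, 30, 1 and 7. Array weights gave 36 for A75QN minus Atro at day 2 (13), 38 for Atro minus Control at day 2 (16), 38 for A66QC minus Atro at day 0 (11), 49 for A75QN minus Atro at day 0 (21), 58 for Atro day 2 minus day 0 (34), and 5 and 44 for the changes of A66QC and A75QN. A fit of the compared groups alone gave 4 for A66QC minus Atro at day 0 and 5 for the change of A75QN. Without the arrays of outlying spread there were 36 for A66QC minus Control at day 2 (20), 23 for A66QC minus Atro at day 2 (4), 34 for A75QN minus Atro at day 0 (21), 1 for the change of A66QC and 5 for that of A75QN. The causes were not tested. The share of all probe sets called is not given for any alternative, including those that leave out 1 array. Whether calls changed for the members more than for all probe sets can therefore not be told. The counts under the alternatives are not read as particular to the members. Leaving out 1 array, calls ranged over 15 to 24, 2 to 4 and 2 to 16 for A66QC minus Control at day 2 and minus Atro at days 2 and 0, over 17 to 30, 6 to 10 and 10 to 24 for A75QN, over 12 to 18 for Atro minus Control at day 2, over 29 to 32, 29 to 36 and 30 to 32 for day 2 minus day 0 in Atro, A66QC and A75QN, and over 0 to 1 and 1 to 4 for the changes. With the replicate block the counts stayed within 1.5 times, for example 18 for Atro minus Control at day 2 and 34 for Atro day 2 minus day 0. Same-numbered samples correlated in their deviations with r from -0.567 to 0.678 over the 10 comparisons. The comparisons of A66QC hold none of the 6 A75QN arrays with the high spike-in signal. The members near background limit the sizes given for them.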
